A study of Mus musculus with 4 samples.

Results

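The Myc network factors are transcription factors that share the dimerization partner Max or its relative Mlx, and 10 of their genes (Myc, Mycn, Max, Mxd1, Mxd3, Mxd4, Mxi1, Mnt, Mga and Mlx) were read by gene symbol from the 23746 gene rows of each table. RNA was measured in 4 primary mammary tumors of female mice, 2 triple-mutant tumors labelled WapCre;Rank;Brca1;p53 (tumors 26043 and 26044) and 2 double-mutant tumors labelled WapCre;Brca1;p53 (tumors 26048 and 26050). In all 4 tumors the WapCre transgene (the line called WapCreC in the study's methods), which is active in mammary epithelial cells, deleted floxed Brca1 and p53 alleles, and in the triple-mutant tumors it also deleted Rank (gene symbol Tnfrsf11a), the receptor for the cytokine RANKL. The comparison asks how these factors differ when Rank is lost along with Brca1 and p53. The age of the mice is not given in the sources used here, and neither is the grade of each single tumor sequenced. For its cohorts, the paper describes tumors lacking Rank as intermediate in grade and tumors that kept it as intermediate or high. Grade may therefore differ between the genotypes here, and its part was not tested. No label says that the tumors came from separate mice, so p-values measure only the spread between these samples.

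Myc proteins (Myc, Mycn and Mycl) bind DNA as heterodimers with Max at the E-box CACGTG and recruit co-activators that raise transcription of genes for ribosome production, translation, nucleotide synthesis and cell division. The antagonists Mxd1, Mxd3, Mxd4, Mxi1 and Mnt compete for Max, bind the same sites and recruit Sin3 and histone deacetylases, and Mga, which also carries a T-box DNA-binding domain, brings Max into a Polycomb complex that silences germline genes. Mlx is a parallel partner that binds the glucose-responsive factors Mlxip (MondoA) and Mlxipl (ChREBP) and some of the antagonists. Gain of MYC is frequent in basal-like human breast cancers, whereas Mycn is best known from embryonic and neural tissue and from neuroblastoma.

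Values are FPKM (sequenced fragments of a gene relative to its length and to the size of the library), so levels may be compared between genes. Log2 fold changes are triple-mutant minus double-mutant on the log2(FPKM + 1) scale with their standard error (SE), and adjusted p-values are limma's, Benjamini-Hochberg adjusted over the 12752 genes that reached 1 FPKM in 2 or more tumors. All 10 factors reached that level, but Mycn did so only in the triple-mutant tumors, as did Mycl, a further Myc family gene described below. A gene that enters the test in this way is bound to be higher in that genotype. With n = 2 tumors in each genotype, the smallest p that exact permutation of 1 value can reach is 0.33.

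Tnfrsf11a stood at 2.07 and 0.962 FPKM in triple-mutant tumors 26043 and 26044, and at 10.6 and 11.9 FPKM in double-mutant tumors 26048 and 26050. The genotypes therefore did not overlap at the deleted receptor (log2 fold change −2.32, SE 0.37, limma adjusted p = 0.225). Brca1, deleted in both genotypes, was at 3.26 and 3.28 FPKM in the triple-mutant and 3.84 and 5.69 FPKM in the double-mutant tumors (log2 fold change −0.41, limma adjusted p = 0.702). Trp53, also deleted in both, was at 15.7, 87.8, 150 and 103 FPKM in the same order (−1.70, adjusted p = 0.575), so both of these genes were lower in the triple-mutant tumors without overlap. These FPKM include exons that a floxed allele keeps, so they are no measure of how complete the deletion was.

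Promoter sequences of 9 of the 10 factors were matched in RefSeq (GRCm38.p6), as the 250 bases before the annotated start (with 3 bases after it for Max), 5′ to 3′ on the strand of the gene. Those that follow are the promoter of Mycn, the factor with the largest difference between genotypes, and the promoters that hold the E-box to which the network itself binds. Capitals mark CACGTG in Max, Mxd4, Mnt and Mlx. In Mycn they mark TTTNNCGC on either strand, a loose form of the site of E2F cell cycle factors, with 3 overlapping or adjacent matches at −183, −179 and −168 bases from the start.
Mycn (chr12:12941837-12942086, minus strand): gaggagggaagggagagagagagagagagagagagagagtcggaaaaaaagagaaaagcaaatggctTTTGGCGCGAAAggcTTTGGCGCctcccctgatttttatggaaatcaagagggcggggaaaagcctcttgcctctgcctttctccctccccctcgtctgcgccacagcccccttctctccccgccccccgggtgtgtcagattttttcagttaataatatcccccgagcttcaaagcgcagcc
Max (chr12:76962246-76962498, minus strand): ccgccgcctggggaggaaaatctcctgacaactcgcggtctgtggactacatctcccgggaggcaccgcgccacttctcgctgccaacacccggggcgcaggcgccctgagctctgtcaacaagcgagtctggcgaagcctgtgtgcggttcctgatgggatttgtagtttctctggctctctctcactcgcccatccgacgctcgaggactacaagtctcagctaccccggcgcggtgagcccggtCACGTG
Mxd4 (chr5:34187711-34187960, minus strand): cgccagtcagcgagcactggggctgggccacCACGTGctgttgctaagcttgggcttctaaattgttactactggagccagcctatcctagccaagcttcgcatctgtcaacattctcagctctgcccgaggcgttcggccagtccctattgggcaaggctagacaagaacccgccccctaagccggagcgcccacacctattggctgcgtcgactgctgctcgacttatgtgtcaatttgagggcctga
Mnt (chr11:74830674-74830923, plus strand): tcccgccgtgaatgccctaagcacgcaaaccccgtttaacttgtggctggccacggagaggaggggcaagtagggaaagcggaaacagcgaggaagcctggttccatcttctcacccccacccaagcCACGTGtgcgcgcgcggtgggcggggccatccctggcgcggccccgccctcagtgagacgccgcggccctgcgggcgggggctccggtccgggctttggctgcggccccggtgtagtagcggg
Mlx (chr11:101087040-101087289, plus strand): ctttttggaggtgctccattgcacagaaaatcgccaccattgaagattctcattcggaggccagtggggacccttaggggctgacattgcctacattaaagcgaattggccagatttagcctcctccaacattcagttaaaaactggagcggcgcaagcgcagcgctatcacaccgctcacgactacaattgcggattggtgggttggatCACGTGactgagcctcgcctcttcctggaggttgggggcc
CACGTG reads the same on both strands. It lay at −3 in Max, across the start itself, and at −219 in Mxd4, −123 in Mnt and −40 in Mlx. Of the factors with a promoter, 4 of 9 (44.4%) held it, counting the match in Max that reaches past the start, against 6.99% of all 27025 genes with a RefSeq promoter and 20.2% (18 of 89 matched) of the Myc-raised genes described further on. The promoters of Mycn, Mxd1, Mxd3, Mxi1 and Mga did not hold these letters in this window. TTTNNCGC occurred in 4.33% of all 32851 promoters. A match is a stretch of letters, not a measured binding site. The 4 factors with CACGTG did not share a direction, since their log2 fold changes were −0.56 (Max), 1.02 (Mxd4), 0.18 (Mnt) and −0.34 (Mlx).

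None of the 10 factors passed an adjusted p of 0.05 in limma, and neither did any of the 12752 genes (0%). At an unadjusted p under 0.05, 1 factor, Mycn, passed, against 9.82% of all genes tested. The tumors of the 2 genotypes did not overlap for 3 factors that were higher in both triple-mutant tumors (Mycn, Mxd3 and Mxi1), where 21.3% of all genes did so, and for 2 that were lower (Max and Mga), where 22.9% of all genes did so. The 5 of 10 without overlap stand beside 44.3% of all genes, so the number of separated factors is close to that among all genes. Which factors separated depended on the scaling. Quantile normalization gave 4 (Max, Mxd1, Mxd3 and Mycn), TPM added Mxd4 to the 5, and median-of-ratios scaling added Mxd1. The median log2 fold change was 0.38 over the 10 factors and −0.02 over all genes tested.

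**Figure D1:**
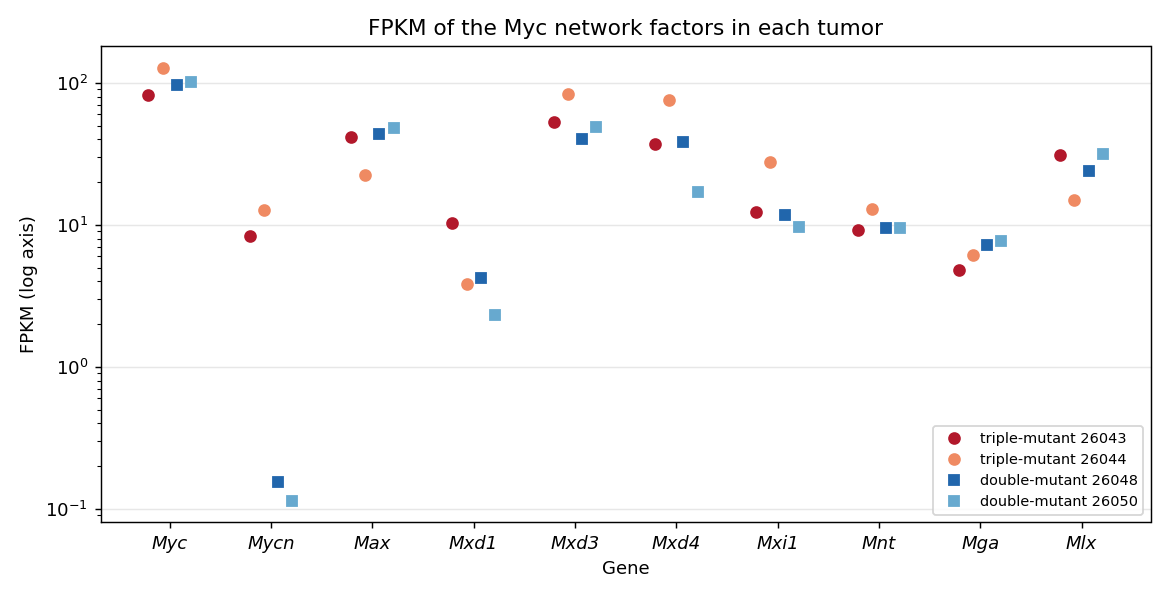
FPKM of the 10 Myc network factors on a log axis, 1 point per tumor, circles for the triple-mutant and squares for the double-mutant tumors. Mycn is the factor whose genotypes lie farthest apart, 8.40 and 12.6 FPKM against 0.154 and 0.114, while Myc is the highest factor in every tumor.

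Among the activators, Myc, on chr15:61985341-61990361 (GRCm38, plus strand), was the most abundant factor in 4 of 4 tumors. Tumors 26043 and 26044 (triple-mutant) had 82.1 and 128 FPKM, and tumors 26048 and 26050 (double-mutant) had 96.1 and 101 FPKM. The triple-mutant tumors lay on either side of the double-mutant tumors, which were close to each other. Myc stood within the top 9.45% of genes tested in each tumor. The mean was 105 ± 32.6 FPKM (SD, n = 2) against 98.4 ± 3.24, and the log2 fold change was 0.06 (SE 0.33, limma adjusted p = 0.956). Without tumor 26044 it was −0.26, so the sign of the Myc difference was set by that tumor.

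Mycn, on chr12:12936093-12941836 (minus strand), showed the widest gap. Tumors 26043 and 26044 (triple-mutant) had 8.40 and 12.6 FPKM, and tumors 26048 and 26050 (double-mutant) had 0.154 and 0.114 FPKM. Both triple-mutant values were therefore just under those of Mnt, and both double-mutant values were the lowest of any factor in their tumor. The ratio of the genotype means was 78.5, and the lower triple-mutant value was 54.5 times the higher double-mutant value. The log2 fold change was 3.32 (SE 0.35, limma adjusted p = 0.143), rank 28 of the genes tested by p. Because Mycn entered the test only through the triple-mutant tumors, its p and rank are no separate support for the difference. The log2 fold change was 3.05 to 3.59 when any 1 tumor was left out. With a pseudocount of 0.1 it was 5.48, since adding 1 FPKM shrinks the difference of a gene this low. Cufflinks' intervals also separated, from 5.63 FPKM upward in the triple-mutant tumors and up to 0.246 FPKM in the double-mutant tumors, although the Mycn estimates of tumors 26043 and 26044 lay above their own intervals, at 1.31 and 1.22 times the midpoint.

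The third Myc family gene, Mycl, which is not among the 10 factors, had the same order of tumors by genotype. Its FPKM was 3.29 and 7.09 in tumors 26043 and 26044 and 0.839 and 0.507 in tumors 26048 and 26050 (ratio of means 7.71, log2 fold change 1.82, SE 0.43, limma adjusted p = 0.396). Because Myc itself was the main source of Myc family RNA, Mycn and Mycl together made up 12.5% and 13.3% of the summed FPKM of the family in tumors 26043 and 26044, against 1.02% and 0.613% in tumors 26048 and 26050. The summed level was 93.8 and 148 FPKM against 97.1 and 101 FPKM, so the genotypes overlapped for the family as a whole.

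The tumors differed in more than genotype. Basal epithelial markers were measured beside the factors, and 7 of the 9 tested were higher in both triple-mutant tumors (21.3% of all genes were), with a summed FPKM of 1780 and 1630 (tumors 26043 and 26044) against 118 and 86.9 (tumors 26048 and 26050). The make-up of these sums differed between the triple-mutant tumors. Krt5, Krt14 and Krt17 were at 596, 611 and 435 FPKM in tumor 26043 and 114, 42.5 and 155 in tumor 26044. Acta2 was at 64.8 FPKM in tumor 26043 and 898 in tumor 26044, against 59.7 and 31.8. Tagln overlapped between genotypes, at 26.7 and 307 FPKM against 44.3 and 37.6. The basal transcription factor Trp63 stood at 28.5 and 48.1 FPKM in tumors 26043 and 26044 and at 1.24 and 0.670 FPKM in tumors 26048 and 26050, the same separation as Mycn and Mycl. By immunostaining, the paper found the proteins of Krt5 and Trp63 reduced in double-mutant tumors of high grade. The grade of tumors 26048 and 26050 is not given, so the part of grade in these values was not tested. None of the basal markers was at 0 in either genotype. In bulk tumors, fewer cells of a type and less RNA per cell cannot be told apart, and the part of the basal markers in the Mycn and Mycl difference was not tested. Of 8 fibroblast markers tested, 5 were lower in both triple-mutant tumors and 1, Pdgfra, was higher, against 22.9% and 21.3% of all genes. Dpt, among the 5 lower, reached 1 FPKM only in the double-mutant tumors, so the filter fixed its direction. The summed FPKM of the fibroblast markers was 123 to 206 against 440 to 909. Of 6 macrophage markers, 4 were lower and none higher, against 22.9% and 21.3% of all genes, with a summed FPKM of 157 to 237 against 341 to 567.

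Max, the shared partner, on chr12:76937269-76962248 (minus strand), was at 41.8 FPKM in tumor 26043 and 22.5 FPKM in tumor 26044, and at 43.6 and 48.0 FPKM in the double-mutant tumors 26048 and 26050. Tumor 26044 was low and tumor 26043 lay just under the double-mutant range. The log2 fold change was −0.56 (SE 0.39, limma adjusted p = 0.653), and −0.13 without tumor 26044. Cufflinks' intervals overlapped between tumors 26043 and 26048.

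Of the antagonists, Mxd3, which is expressed in dividing progenitor cells, was the most abundant in every tumor. It lies on chr13:55325168-55329730 (minus strand) and had 52.8 and 83.8 FPKM in tumors 26043 and 26044 (triple-mutant) and 40.2 and 48.7 FPKM in tumors 26048 and 26050 (double-mutant). The genotypes did not overlap, but the lower triple-mutant value was only 1.08 times the higher double-mutant value (log2 fold change 0.58, SE 0.34, limma adjusted p = 0.619, and 0.25 without tumor 26044). Mxd3 overlaps Prelid1 on the opposite strand, which was at 363 to 450 FPKM, and the strand setting of the counting is not given in the sources used here.

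Mxd4 (chr5:34176580-34187710, minus strand), which accumulates in differentiating cells, was at 37.3 FPKM in tumor 26043, 75.6 in tumor 26044, 38.2 in tumor 26048 and 17.1 in tumor 26050. The tumors of each genotype differed from each other about as much as the genotypes did, with ratios of 2.02 within the triple-mutant and 2.24 within the double-mutant tumors and 2.04 between the means. The log2 fold change was 1.02 (SE 0.56, limma adjusted p = 0.594), 0.53 without tumor 26044, 0.47 without tumor 26050 and 1.58 without tumor 26048. The FPKM of Mxd4 lay at 1.96 to 2.33 times the midpoint of its Cufflinks interval in all 4 tumors, outside the interval.

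Mxi1 (chr19:53310506-53375810, plus strand), also linked to growth arrest, was at 12.4 FPKM in tumor 26043, 27.8 in tumor 26044, 11.6 in tumor 26048 and 9.71 in tumor 26050. Tumor 26044 stood apart and the other 3 tumors were close to each other. The log2 fold change was 0.75 (SE 0.47, limma adjusted p = 0.630) and 0.20 without tumor 26044.

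Mxd1 (chr6:86647045-86669159, minus strand), a factor of terminally differentiating cells, was at 10.3 FPKM in tumor 26043, 3.85 in tumor 26044, 4.23 in tumor 26048 and 2.31 in tumor 26050. Here tumor 26043 was the high one and the genotypes overlapped (log2 fold change 0.83, SE 0.55, limma adjusted p = 0.646). Without tumor 26043 the value was 0.22.

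Mnt (chr11:74830924-74845725, plus strand), the antagonist that most cell types express whether they divide or not, was at 9.18 FPKM in tumor 26043, 12.9 in tumor 26044, 9.43 in tumor 26048 and 9.49 in tumor 26050. Apart from tumor 26044 the level was nearly flat (log2 fold change 0.18, SE 0.32, limma adjusted p = 0.860, and −0.04 without tumor 26044). Like those of Mxd4, the Mnt estimates lay outside their Cufflinks intervals in every tumor, at 1.28 to 1.41 times the midpoint.

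Mga (chr2:119897228-119969581, plus strand) was the lowest antagonist in tumor 26043 and the lowest but Mxd1 in the other 3 tumors, at 4.82 and 6.15 FPKM in tumors 26043 and 26044 and 7.16 and 7.74 FPKM in tumors 26048 and 26050. The genotypes did not overlap and neither did their Cufflinks intervals (log2 fold change −0.39, SE 0.31, limma adjusted p = 0.699, and −0.24 without tumor 26043), but after quantile normalization the genotypes overlapped. Mga and Mycn were the only factors of the 10 with separated intervals.

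Mlx, the parallel partner, on chr11:101087290-101092207 (plus strand), was at 31.3 FPKM in tumor 26043, 14.9 in tumor 26044, 24.0 in tumor 26048 and 31.8 in tumor 26050. The level was low in tumor 26044 and the genotypes overlapped (log2 fold change −0.34, SE 0.45, limma adjusted p = 0.814, and 0.17 without tumor 26044). Its partner Mlxip was at 27.2, 13.6, 18.1 and 19.2 FPKM in the same order of tumors (log2 fold change 0.05). Its partner Mlxipl was at 0.398 and 0.300 FPKM in the triple-mutant and 3.02 and 0.547 FPKM in the double-mutant tumors and did not reach the level for a test. Zbtb17 (Miz-1), through which Myc represses genes, was at 12.8, 13.4, 10.6 and 14.4 FPKM (log2 fold change 0.08).

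**Figure D2:**
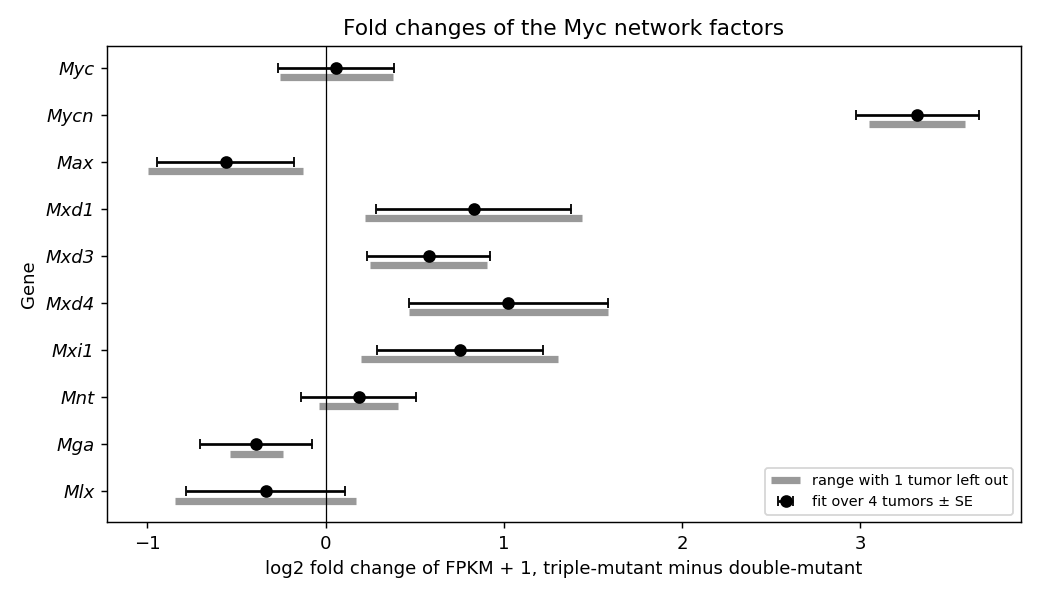
Log2 fold change of FPKM + 1, triple-mutant minus double-mutant, for each factor, with the limma estimate over 4 tumors and its SE (black) and the range of estimates when 1 tumor was left out (grey). The Mycn range, 3.05 to 3.59, lies apart from 0, whereas the grey ranges of Myc, Mnt and Mlx cross 0.

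Tumor 26044 recurred in these values. It was the highest of the 4 tumors for 6 of the 10 factors (Myc, Mycn, Mxd3, Mxd4, Mxi1 and Mnt) and the lowest for 2 (Max and Mlx). The triple-mutant tumors differed from each other by more than 1.5 times in 8 factors, and the double-mutant tumors in 2 (Mxd1 and Mxd4). No share of all genes stands beside these counts, so they are not read as a trait of the factors. Summed FPKM over all genes was also largest in tumor 26044, at 796031 against 690775 to 742361. The same tumor had the lowest summed FPKM of luminal epithelial markers, 464 against 3222 in tumor 26043 and 2346 to 2530 in the double-mutant tumors. The list did not move as one, since 4 of its 12 genes lay higher in both tumors without Rank (Krt19, Foxa1, Esr1 and Pgr) and 5 lay lower, where 21.3% and 22.9% of all genes were. Esr1 and Pgr reached 1 FPKM only in the triple-mutant tumors, so the filter fixed their direction. Among the 5 lower genes, Epcam, an adhesion molecule of epithelial cells, was at 25.7 FPKM in tumor 26044 against 347 in tumor 26043 and 390 to 516. The smooth muscle actin gene Acta2 was at 898 FPKM there against 31.8 to 64.8 in the other 3 tumors. Adipocyte markers were highest in the double-mutant tumor 26048 (summed FPKM 1420 against 7.77 to 261), and skeletal muscle markers in tumor 26050 (33.4 against 2.05 to 2.91). The part of these tissues in the factor levels was not tested.

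The balance between partners was read as ratios inside each tumor, which do not depend on library scaling. The 6 antagonists together exceeded the Myc family in both triple-mutant tumors, with ratios of 1.35 and 1.42, and lay on either side of it in the double-mutant tumors, at 1.14 and 0.939. The difference was 0.42 on the log2 scale (SD 0.05 and 0.20, n = 2 each, two-sided exact permutation p = 0.33, the smallest this design can give). Mxd3 and Mxd4 contributed most of the antagonist RNA. Mxd3 made up 41.7%, 39.9%, 36.2% and 51.3% of it and Mxd4 29.5%, 36.0%, 34.5% and 18.0% in tumors 26043, 26044, 26048 and 26050. The FPKM of Mxd4 and Mnt lay above their own intervals in every tumor. Whether the antagonists exceed the Myc family in a tumor therefore depends on the estimate used. With interval midpoints the log2 difference between genotypes was 0.38.

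Max RNA per unit of partner RNA was 0.190 and 0.0628 in triple-mutant tumors 26043 and 26044, and 0.210 and 0.245 in double-mutant tumors. The genotypes did not overlap (log2 difference −1.05, two-sided exact permutation p = 0.33, the smallest possible), and tumor 26044 carried most of the difference, which was −0.26 without it. In that tumor the partners summed to 358 FPKM, against 196 to 221 in the others, while Max was at its lowest.

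**Figure D3:**
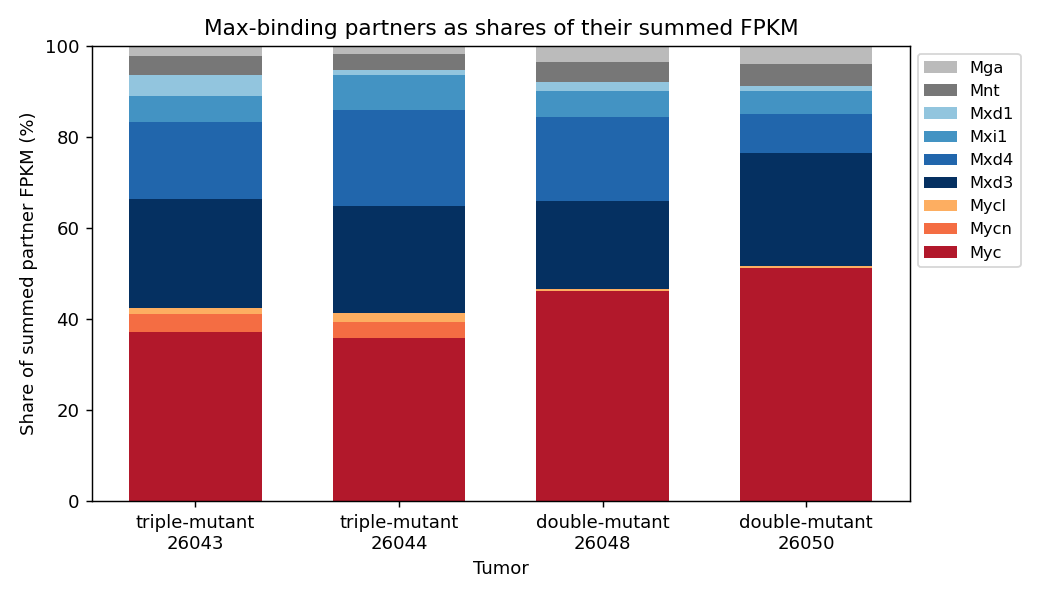
Each Max-binding partner as a percent of the summed FPKM of all partners, 1 stacked bar per tumor. Myc takes 37.2% and 35.8% in the triple-mutant bars against 46.2% and 51.3% in the double-mutant bars, and Mycn 3.81% and 3.53% against 0.0740% and 0.0581%.

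Genes near the factors were examined to see whether neighbours moved with them. Within 2 Mb of Mycn, 5 other genes were tested, and none was higher in both triple-mutant tumors while 4 were lower in both (Gen1, Smc6, Ddx1 and Nbas), with a median log2 fold change of −1.04. Of all genes, 21.3% were higher and 22.9% lower in both triple-mutant tumors. Ddx1, an RNA helicase gene 0.295 Mb from Mycn that is often co-amplified with MYCN in neuroblastoma, was at 33.0 and 28.5 FPKM in the triple-mutant and 64.99 and 65.2 FPKM in the double-mutant tumors (log2 fold change −1.06, SE 0.26, limma adjusted p = 0.409). Gen1, which encodes a Holliday junction resolvase, was at 1.04 and 0.973 FPKM against 3.03 and 3.63 FPKM (log2 fold change −1.11). The Mycn difference was thus opposite in sign to that of the 4 neighbours without overlap. The remaining neighbour, Fam84a, overlapped between genotypes, at 17.4 and 0.951 FPKM against 14.0 and 1.99 FPKM (log2 fold change −0.16, SE 1.35). No copy number was measured.

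Chromosome 12, which holds both Mycn and Max, had the lowest median log2 fold change of the 20 chromosomes described, −0.41 over 436 genes, with 44.0% of its genes lower in both triple-mutant tumors and 9.40% higher, against 22.9% and 21.3% of all genes. Chromosome 8 (median −0.36, 42.2% lower) and chromosome 1 (−0.34, 41.2% lower) were close to it, so this is not particular to the chromosome of Mycn and Max. This was looked at after the Mycn neighbours had been seen. The median deviation of the chromosome 12 genes from their own 4-tumor mean was −0.06 and −0.35 on the log2 scale in tumors 26043 and 26044 and 0.18 and 0.26 in tumors 26048 and 26050. The 24 genes tested within 2 Mb of Max had a median of −0.51, close to the −0.56 of Max itself, and the largest without overlap on either side were Hspa2 (1.01) and AI463170 (−2.73). AI463170 was at 0.778 and 0.273 FPKM in the triple-mutant and 6.35 and 12.6 FPKM in the double-mutant tumors. It reached 1 FPKM only in the double-mutant tumors, so the filter fixed its direction.

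Around Myc, 4 genes were tested within 2 Mb, of which none was higher in both triple-mutant tumors and 2 were lower, Fam84b and Fam49b, where 21.3% and 22.9% of all genes were. Fam49b was at 21.5 and 22.6 FPKM against 27.6 and 44.3 FPKM (log2 fold change −0.64). The non-coding neighbour Pvt1, often gained together with MYC, was at 1.89, 4.10, 4.13 and 3.93 FPKM in tumors 26043, 26044, 26048 and 26050 and overlapped between genotypes.

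**Figure D4:**
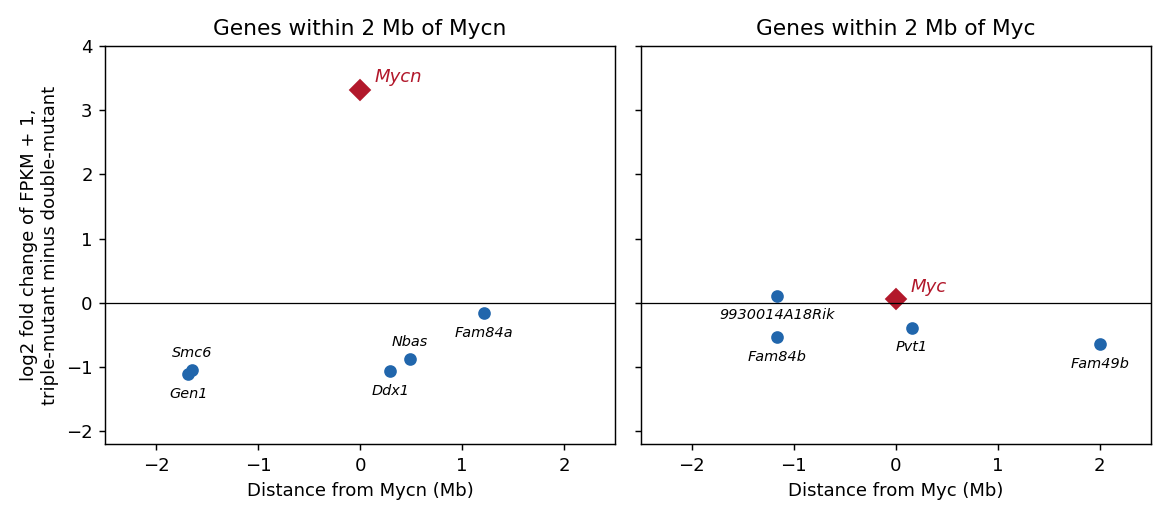
Log2 fold change of FPKM + 1, triple-mutant minus double-mutant, of the genes tested within 2 Mb of Mycn and of Myc (blue circles) against their distance in Mb, with the factor itself as a red diamond. Mycn stands at 3.32 while its neighbours have a median of −1.04, and the neighbours of Myc have a median of −0.46.

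Beside the other factors without overlap, the medians of the neighbours had either sign. Around Mxd3, 43 genes were tested with a median of 0.10, and the largest differences without overlap on either side of 0 were Cxcl14, a chemokine gene (66.9 and 336 FPKM against 22.7 and 14.7, log2 fold change 2.97), and Sfxn1 (25.8 and 20.6 FPKM against 40.9 and 56.6, −1.03). Around Mxi1, 14 genes had a median of −0.26, with Adra2a (1.78) and Gpam (−0.59) as the largest without overlap on either side. Around Mga, 68 genes had a median of −0.22, with Rhov (2.33) and Thbs1 (−2.30) in these places. Around Mycl, 29 genes had a median of −0.33, and the lipid transporter gene Mfsd2a was at 22.01 and 101 FPKM against 5.35 and 5.66 FPKM (log2 fold change 2.90, SE 0.76, limma adjusted p = 0.442), while Rhbdl2 was the largest below 0 (−1.16).

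The genes on which the network acts were taken from hand-written lists. The 4 lists of genes that Myc is known to raise held 109 tested genes, none of which passed an adjusted p of 0.05, and 10 had an unadjusted p under 0.05. Both triple-mutant tumors were the higher ones for 8 (7.34%) of the 109 genes and the lower ones for 56 (51.4%), against 21.3% and 22.9% of all genes, with a median log2 fold change of −0.31. Tumor 26050 had the highest value for 72 of them and tumor 26044 the lowest for 50.

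By function, 23 of 40 ribosome biogenesis genes (57.5%) were lower in both triple-mutant tumors and 1 (2.5%) was higher, against 22.9% and 21.3% of all genes. The list median was −0.41, and −0.28 without tumor 26050. The nucleolar protein gene Ncl was at 114 and 91.5 FPKM against 177 and 219 FPKM (log2 fold change −0.94, SE 0.29, limma adjusted p = 0.476), and the RNA helicase gene Ddx18 and the rRNA processing gene Ftsj3 stood at −0.90 and −0.89. Of 14 translation genes, 9 (64.3%) were lower and 2 (14.3%) higher, beside the same shares of all genes (median −0.53, and −0.28 without tumor 26050). The lower ones were led by Eif3j, Eif1ax and Eif4a1, the last at 537 and 398 FPKM against 750 and 1122 FPKM.

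Of 37 metabolic genes, 16 (43.2%) were lower and none higher, against 22.9% and 21.3% of all genes. The list median was −0.26, but −0.51 without tumor 26048 and −0.11 without tumor 26050. The transferrin receptor gene Tfrc, for iron uptake, was at 27.0 and 31.9 FPKM against 103 and 99.9 FPKM (log2 fold change −1.76, SE 0.26, limma adjusted p = 0.207). Impdh1, an enzyme of guanine nucleotide synthesis, had the largest difference of the list (−3.14), but it was at 1084 FPKM in tumor 26050 and at 82.4 in tumor 26048. The spermine synthase gene Sms was likewise highest in tumor 26050, at 61.8 FPKM against 6.64 to 12.9 in the other 3 tumors.

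The cell cycle list was mixed, with 5 genes higher (27.8%) and 8 lower (44.4%) of 18, against 21.3% and 22.9% of all genes. Its median was −0.11, and 0.02 without tumor 26050. Ccnd2, encoding cyclin D2, was the gene of the 4 lists with the largest difference. It stood at 37.7 and 84.6 FPKM in the triple-mutant tumors, against 3.71 and 2.03 FPKM with Rank intact (log2 fold change 3.93, SE 0.51, limma adjusted p = 0.181). Ccne1 (cyclin E1) and the replication licensing gene Mcm5 lay on the other side, at −1.11 and −0.98. Of 15 proliferation genes 4 were lower (26.7%), a share near the 22.9% of all genes, and none was higher, where 21.3% of all genes were. Their median was −0.22, and 0.03 without tumor 26050. The lower ones included Mki67 at 22.5 and 25.1 FPKM against 39.9 and 38.5 FPKM, the ribonucleotide reductase gene Rrm2 (−1.55) and the spindle motor gene Kif11 (−0.48).

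Genes that Myc represses also went both ways, with 6 of 16 higher and 4 lower, against 21.3% and 22.9% of all genes. Their median was 0.17 and moved between −0.73 without tumor 26050 and 0.83 without tumor 26048. Ndrg2 was at 20.6 and 86.5 FPKM against 9.74 and 2.70 FPKM (log2 fold change 2.78), whereas Thbs1, encoding the angiogenesis inhibitor thrombospondin 1, was at 24.8 and 10.8 FPKM against 146 and 49.3 FPKM (−2.30). The growth arrest gene Gadd45a stood at −2.21, with 209 FPKM in tumor 26048 and 11.7 to 18.2 FPKM in the other 3 tumors.

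**Figure D5:**
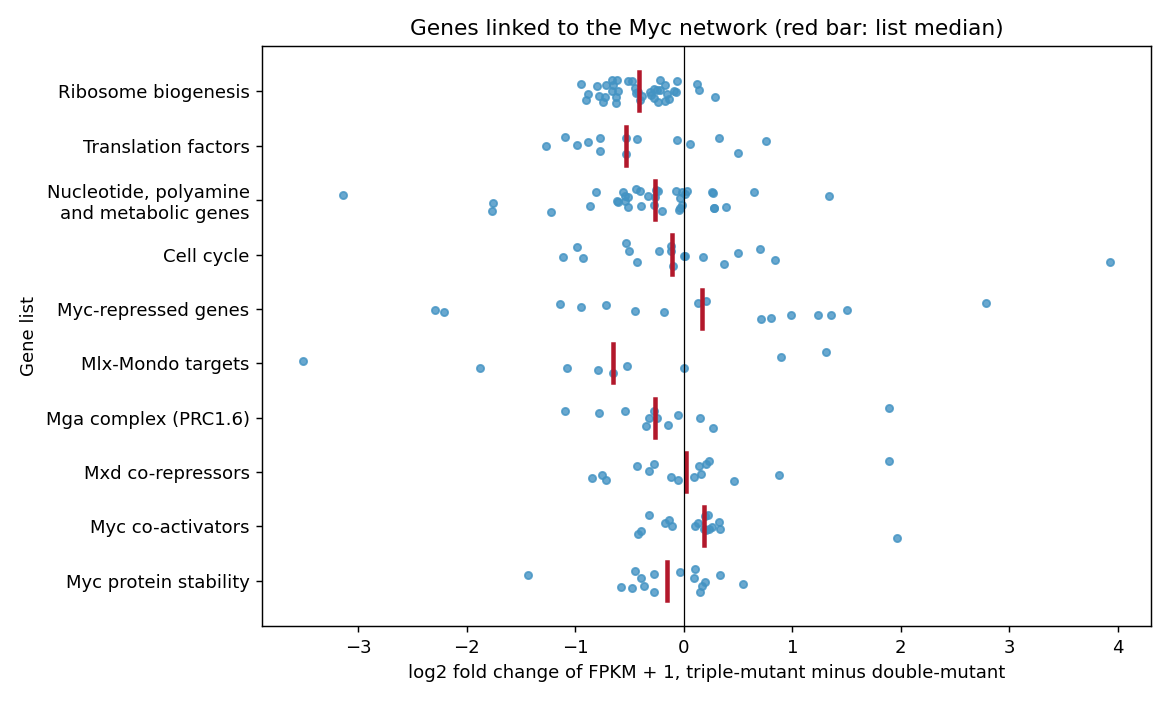
Log2 fold change of FPKM + 1, triple-mutant minus double-mutant, of each tested gene (blue points) in 10 lists tied to the network, with the list median as a red bar and points spread vertically only to be seen. The ribosome biogenesis, translation and metabolic lists have medians of −0.41, −0.53 and −0.26, and Ccnd2 is the point at 3.93.

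The cofactors through which the network acts, in 4 lists, had medians of −0.26 to 0.18, and their counts stand beside 21.3% of all genes higher and 22.9% lower in both triple-mutant tumors. Of 17 Myc co-activators, 1 was higher and 1 lower (5.88% each), with a median of 0.18 that was 0.0055, 0.044 and 0.055 without tumors 26044, 26048 and 26050. These were Smarcb1, a chromatin remodelling subunit, at 80.9 and 507 FPKM against 51.2 and 51.1 FPKM, and the histone methylation scaffold Wdr5 (−0.32). Of 16 corepressors that the Mxd proteins recruit, 3 were higher (18.8%) and 4 lower (25.0%), shares near those of all genes, with a median of 0.02 that was −0.11 without tumor 26044 and −0.10 without tumor 26043. Among them the histone deacetylase gene Hdac2 was at 74.7 and 307 FPKM against 30.6 and 52.6 FPKM. Sap18 (0.88) and Sap30 (−0.85) were the other corepressors with the largest differences. Both Smarcb1 and Hdac2 were thus highest in tumor 26044.

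Of 16 genes that control Myc protein stability, 1 was higher and 3 lower (median −0.15, and −0.00024 without tumor 26050), the lower ones being Plk1 (−0.58), Set (−0.40) and the deubiquitinase gene Usp28 (−1.44), which was at 29.4 FPKM in tumor 26050 and 3.15 to 3.49 FPKM in the other 3 tumors. Of 12 partners of Mga in its Polycomb complex, 1 was higher (Hdac2) and 4 were lower (median −0.26, from −0.45 without tumor 26043 to −0.15 without tumor 26044), where 21.3% and 22.9% of all genes were. E2f6, which brings that complex to DNA, was at 8.62 and 6.86 FPKM against 16.7 and 18.6 FPKM (log2 fold change −1.10, SE 0.30, limma adjusted p = 0.453), and L3mbtl2 stood at −0.78. Of 16 germline genes that Mga represses, 13 were under 1 FPKM in all 4 tumors, 3 of them at 0 throughout, so their levels gave no comparison between genotypes.

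Of 9 tested targets of Mlx with its Mondo partners, 2 were higher (22.2%) and 3 lower (33.3%), against 21.3% and 22.9% of all genes. In so short a list these shares rest on few genes. The median was −0.66, but −0.11 without tumor 26048 and −1.10 without tumor 26050. The fatty acid elongase gene Elovl6 was at 5.67 and 2.39 FPKM against 17.4 and 15.5 FPKM (log2 fold change −1.87, SE 0.44, limma adjusted p = 0.396), and the fructokinase gene Khk was at 6.61 and 6.81 FPKM against 3.05 and 1.39 FPKM. Gpd1, which is abundant in fat, was at 138 FPKM in tumor 26048, the tumor with the most adipocyte marker RNA, and at 1.77 to 22.3 FPKM in the other 3. Of the 9 tested further network genes, 3 were higher (33.3%) and 1 was lower (11.1%) in both triple-mutant tumors, beside the same shares of all genes. Mycl (1.82), the E-box factor gene Tfap4 (0.65) and Mycbp (−1.11) showed the largest differences without overlap.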

How the data were processed

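PolyA mRNA of 4 mammary tumors was sequenced as 50-bp single-end reads. Per the submitters' processing notes, the authors used TopHat2 2.0.10, Bowtie 0.12.9, HTSeq, Cufflinks 2.1.1 and DESeq2 1.6.2 with the build mm10. The annotation is not given in the sources used here. The authors deposited, per tumor, the FPKM of each gene from Cufflinks with the bounds of its confidence interval, and those FPKM were used here. Read counts were not analysed here, so DESeq2 was not run, and the depth per tumor is unknown. The distance from the midpoint to a bound came to 8.36% to 9.05% of the midpoint in the median gene, which says nothing of the variation from tumor to tumor. For 43.6% to 51.1% of genes tested, the interval did not hold the FPKM.

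Genotypes and tumor numbers came from the labels, which give no pairing. Genes that reached 1 FPKM in 2 or more tumors were kept. Their log2(FPKM + 1) values entered a fit in limma 3.58.1 (lmFit, eBayes with a trend, R 4.3.3), with Benjamini-Hochberg adjustment over 12752 genes. Ratios inside a tumor were compared by exact permutation. A difference without overlap means that both tumors of a genotype lay above both of the other. Named genes were all factors, Mycl, Mlxip, Mlxipl, Zbtb17, the deleted genes, the 3 largest differences without overlap in each list other than the cell type markers, and the largest without overlap on either side of 0 among neighbours within 2 Mb of Myc and the factors without overlap. Fam84b, Pvt1, Mfsd2a, Rhbdl2, Smc6, Ddx1, Nbas, Trp63, Epcam, Acta2, Krt19, Foxa1, Esr1, Pgr and Prelid1 were named after their values were seen. So were Fam84a, Krt5, Krt14, Krt17, Pdgfra, Tagln and Dpt. The factors, the 22 gene lists and the tests were chosen with earlier results of these data known. Coordinates of the genes are the loci that the authors deposited with the FPKM (build mm10). Strands and gene overlaps are from GENCODE M21 on GRCm38. Of 21171 symbols matched to GENCODE, 98.0% had a deposited locus that overlapped the GENCODE gene. The scripts were tested on simulated data. Alternatives were TPM, a pseudocount of 0.1, a filter of 5 FPKM, no filter, quantile normalization, median-of-ratios scaling, no trend, genes of status OK and each tumor left out, and the interval midpoint was added after seeing the data. Python 3.11.15 and pandas 2.3.3 were used.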

Additional observations from a re-analysis of the deposited data

How the results depend on the processing

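No factor passed an adjusted p of 0.05 in limma under any alternative or with any tumor left out. The number of all genes called was 0 in the fit reported, 6 with quantile normalization, 5 without the trend and 1 with interval midpoints, and 0 in each fit with a tumor left out. The cause of the differences between these counts was not tested. In all, 3 directions were set by tumor 26044, since the log2 fold change without it was −0.26 for Myc, −0.039 for Mnt and 0.17 for Mlx, and with each tumor left out in turn it ran from −0.26 to 0.38, from −0.039 to 0.41 and from −0.85 to 0.17. Mycn was 3.02 to 5.48 over the alternatives and 3.05 to 3.59 when a tumor was left out. Its limma adjusted p over the alternatives that kept every tumor ran from 0.131 with TPM to 0.431 with no filter. The ratio of antagonists to the Myc family was 0.38 to 0.53 on the log2 scale over the alternatives and 0.28 to 0.56 when a tumor was left out. That of Max to its partners was −1.03 to −0.98 and −1.85 to −0.26. The number of factors without overlap was 5, and 4 to 6 with other scalings, of which Max, Mxd3 and Mycn were without overlap in each. No paired analysis was possible because the labels give no shared replicate numbers. The levels of Mxd4 and Mnt depend on an estimate that lay outside its own interval, and without tumor 26044 the log2 fold change of Max went from −0.56 to −0.13 and that of Mxi1 from 0.75 to 0.20. With 2 tumors per genotype and unknown depth, small differences could not be told from the spread between tumors.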
